A study of Mus musculus with 5 samples.

Results

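Homeodomain transcription factors bind DNA through a conserved helix-turn-helix domain and set regional and cell identity in the embryo, and many of their genes stand in clusters or in families of close paralogues. In the neural tube, members of the Nkx, Pax, Irx, Msx and Dlx families mark progenitor domains from ventral to dorsal, Hox genes mark position from hindbrain to spinal cord, and LIM (Lhx) and POU factors act in neuron subtypes. Oligodendrocytes, the glia that myelinate axons in brain and spinal cord, arise largely from ventral progenitors, and Nkx2-2 and Nkx6-2 are known for roles in their differentiation and myelination. The genes described here were the 112 protein-coding genes, of 21644 on the chromosomes that carry peaks, whose symbol begins with Hoxa, Hoxb, Hoxc, Hoxd or Nkx, is Lhx, Dlx, Irx, Pax, Meis, Msx or Otx followed by digits, is that of a numbered gene of the family of Six5, or is Pou followed by a digit. They fall into 14 families. The choice went by symbol, so it also takes in Pou2af1, a coactivator without a homeodomain, and Pax1 and Pax9, which have a paired domain and no homeodomain.

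Chromatin immunoprecipitation sequencing with an antibody against ZNF24 was used to map the zinc finger protein ZFP24 (also ZFP191) in immunopanned mouse brain cells of postnatal day 7. All samples carry the strain label C57BL/6. The groups were wild-type oligodendrocyte progenitor cells (OPC), OPC of Zfp191-null mice, oligodendrocytes (OLG) of each genotype, made from OPC in 5 days of culture without PDGF and with 40 ng/ml triiodothyronine, and input chromatin pooled over both genotypes and both cell types, with 1 library in each group. The submitters name null cells and input as controls, and their libraries' signal was not analysed here. The labels of the null libraries name the same lists as those of the wild-type libraries, and the lists are taken here as those of the wild-type cells. The values were 2 lists of peak positions, 4643 peaks of 209 bp for OPC and 1752 peaks of 221 bp for OLG. Neither list carried a score or a tag count, so the depth behind each list and the height of each peak are unknown, and a gene without a listed peak is not shown to be unbound. With 1 library in each group and no replicates, no test between OPC and OLG was made, and the lists, which hold no expression, did not allow the cell types to be checked against their markers. Exact (Clopper-Pearson) 95% intervals of shares cover counting error over genes or peaks only, and genes of one cluster can share a peak, so they are not independent.

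The peaks printed below differ in sequence. The following 3, all from the OPC list, hold tandem copies of the 4-base unit TCAT, with every stretch of at least 8 bases in capitals, in GRCm38 (mm10), 5′ to 3′ on the strand that reads TCAT. The Nkx6-3 peak lies in its intron. Within 10 kb of a start of these genes, only this peak held a repeat of 12 bases or more. The Pax7 peak (in its intron) and the Meis2 peak lie further out and are not among the peaks counted within 10 kb.
Nkx6-3, OPC peak, chr8:23157009-23157217, plus strand: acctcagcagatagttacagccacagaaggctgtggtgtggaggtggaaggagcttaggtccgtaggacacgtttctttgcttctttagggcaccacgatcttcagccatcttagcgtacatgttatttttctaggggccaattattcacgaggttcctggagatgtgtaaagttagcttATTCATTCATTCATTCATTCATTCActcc
Pax7, OPC peak, chr4:139803139-139803347, minus strand: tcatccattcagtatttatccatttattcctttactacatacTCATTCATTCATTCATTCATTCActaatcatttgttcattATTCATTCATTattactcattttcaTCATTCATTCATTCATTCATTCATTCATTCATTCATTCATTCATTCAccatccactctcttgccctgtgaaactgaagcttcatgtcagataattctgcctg
Meis2, OPC peak, chr2:116076710-116076918, plus strand: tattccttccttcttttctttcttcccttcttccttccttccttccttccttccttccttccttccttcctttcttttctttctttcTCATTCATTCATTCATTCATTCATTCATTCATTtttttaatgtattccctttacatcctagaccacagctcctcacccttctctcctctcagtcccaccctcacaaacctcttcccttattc

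The peaks below hold no such repeat. Capitals mark CG dinucleotides, in the same build and on the strand of the named gene. The pair at Pou3f2 shows its upstream OPC peak and its OLG peak, as a gene of both lists, the pair at Hoxa9 and Hoxa4 shows an OLG and an OPC peak of one Hox cluster, and the Otx1 peak is upstream of its start.
Pou3f2, OPC peak, chr4:22494939-22495147, minus strand: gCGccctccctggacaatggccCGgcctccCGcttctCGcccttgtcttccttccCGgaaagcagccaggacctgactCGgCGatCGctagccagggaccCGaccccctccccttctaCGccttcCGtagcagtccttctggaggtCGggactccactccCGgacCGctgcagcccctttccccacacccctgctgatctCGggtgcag
Pou3f2, OLG peak, chr4:22489909-22490129, minus strand: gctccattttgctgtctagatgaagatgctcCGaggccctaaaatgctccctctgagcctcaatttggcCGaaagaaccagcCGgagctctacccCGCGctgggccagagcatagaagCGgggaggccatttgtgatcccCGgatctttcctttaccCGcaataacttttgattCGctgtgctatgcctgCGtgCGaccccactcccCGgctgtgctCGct
Hoxa9, OLG peak, chr6:52229905-52230125, minus strand: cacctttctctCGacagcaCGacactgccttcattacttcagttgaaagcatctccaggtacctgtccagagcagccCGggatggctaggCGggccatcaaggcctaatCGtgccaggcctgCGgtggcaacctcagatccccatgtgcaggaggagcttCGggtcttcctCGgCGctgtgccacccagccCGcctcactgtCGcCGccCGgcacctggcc
Hoxa4, OPC peak, chr6:52193671-52193879, minus strand: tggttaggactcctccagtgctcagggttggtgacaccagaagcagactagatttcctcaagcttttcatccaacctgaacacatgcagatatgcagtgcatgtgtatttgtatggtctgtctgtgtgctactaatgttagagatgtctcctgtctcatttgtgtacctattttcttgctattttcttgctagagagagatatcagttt
Otx1, OLG peak, chr11:22001935-22002155, minus strand: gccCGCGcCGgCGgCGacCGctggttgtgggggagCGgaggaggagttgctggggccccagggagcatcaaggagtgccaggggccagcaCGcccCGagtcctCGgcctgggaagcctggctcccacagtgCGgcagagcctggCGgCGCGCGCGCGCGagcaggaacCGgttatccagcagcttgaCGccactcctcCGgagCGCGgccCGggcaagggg
These printed peaks held 15 CG dinucleotides at Pou3f2 in OPC, 13 at Pou3f2 in OLG, 13 at Hoxa9, 0 at Hoxa4 and 24 at Otx1. Their GC content ran from 42.1% at Hoxa4 to 74.7% at Otx1. The longest repeat was 25 bases at Nkx6-3, 47 at Pax7 and 33 at Meis2, with its middle 88, 26 and 1 bp from the peak centre in that order.

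Of the 112 genes, 16 had the centre of an OPC peak within 10 kb of a transcript start, a share of 14.3% (95% interval 8.39 to 22.2), where 12.8% of all protein-coding genes did. The OPC share was thus near that of genes in general. An OLG peak lay within 10 kb of 14 genes, 12.5% (7.01 to 20.1), against 6.48% of all protein-coding genes. The OLG share was above that of genes in general, and 7 of the 14 genes belong to the Hoxa cluster, where they share 4 peaks. Without the 39 Hox genes, 7 of 73 genes (9.59%) had an OLG peak and 13 of 73 (17.8%) an OPC peak. Both lists had a peak near 3 genes, 2.68% (0.556 to 7.63), against 2.12% of all protein-coding genes. At least 1 list had a peak near 27 genes, 24.1% (16.5 to 33.1), against 17.1%, which left 85 genes with none. The median distance from a start to the nearest OPC peak was 101 kb for these genes and 129 kb for all protein-coding genes, and to the nearest OLG peak 377 kb and 335 kb. At the edge of the 10 kb window, the OPC peak of Pou2f2 lay just inside at 9699 bp and that of Hoxa5 just outside at 10812 bp. In OLG, Hoxa3 lay inside at 8522 bp and Hoxd13 outside at 10387 bp.

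**Figure D1:**
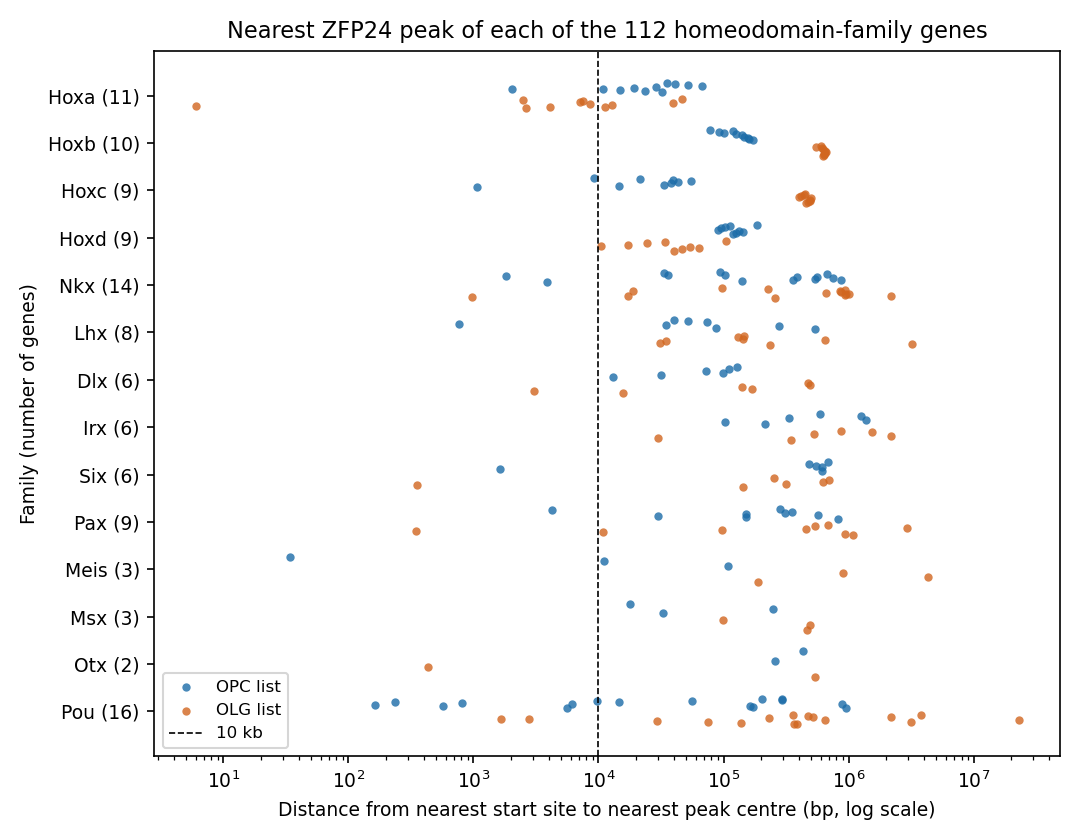
Distance in bp (log scale) from a start of each of the 112 genes to the nearest OPC (blue) or OLG (orange) peak centre, 1 point per gene and list, by family, with the number of genes in brackets. Points left of the dashed 10 kb line are the 16 genes of the OPC list and the 14 of the OLG list; 7 of 11 Hoxa genes lie there in OLG and 7 of 16 Pou genes in OPC.

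The plot of shares by family shows 7 of 11 Hoxa genes (63.6%) with an OLG peak and 1 (9.09%) with an OPC peak. The 7 Hoxa genes share 4 OLG peaks. For the Pou genes the plot shows 7 of 16 (43.8%) for OPC and 2 (12.5%) for OLG. Over all protein-coding genes the shares were 12.8% for OPC and 6.48% for OLG, so a higher OPC share is also the order of genes in general. Hoxb, Hoxd, Irx and Msx had no gene within 10 kb of a peak of either list. With 6 to 16 genes in most families and fewer in Meis, Msx and Otx, a count of 0 allows a wide range of shares, up to 30.0% for the 10 Hoxb genes and 50% for the 6 Irx genes, taking 3 counts as the limit.

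**Figure D2:**
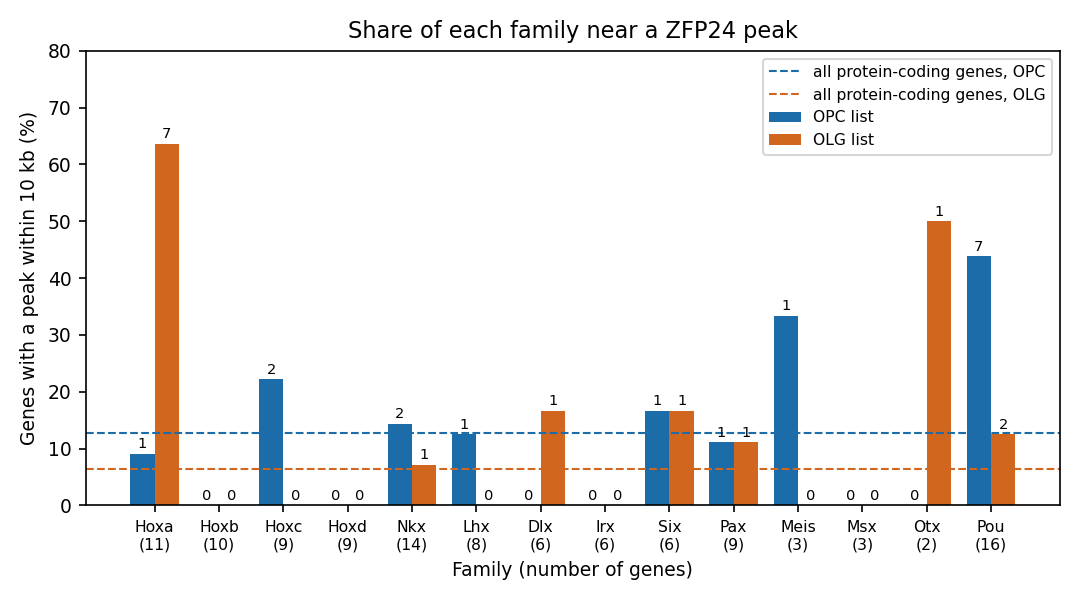
Percent of each family's genes with an OPC (blue) or OLG (orange) peak centre within 10 kb of a start; the number on each bar is the count of genes, and the dashed lines are the shares of all protein-coding genes, 12.8% for OPC and 6.48% for OLG. Hoxa stands highest in OLG at 63.6%, and among families of more than 3 genes Pou stands highest in OPC at 43.8%.

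The 4 Hox clusters encode factors that specify position along the body axis, and peaks lay in those of Hoxa and Hoxc. The Hoxa cluster (chr6:52145590-52270880, from 10 kb before its outermost start on one side to 10 kb after that on the other) held 4 OLG peaks and 1 OPC peak in 125 kb. That is 31.9 OLG peaks per Mb, against 0.665 over all chromosomes, and 7.98 OPC peaks per Mb, against 1.76. The Hoxc cluster held 1 OPC peak in 136 kb (7.37 per Mb) and no OLG peak. Hoxb, in 194 kb, and Hoxd, in 117 kb, held no peak of either list. The nearest OPC peak to a Hoxb gene was 78.2 kb from Hoxb1, and the nearest OLG peak was 549 kb from Hoxb13. Beside the Hoxd cluster, an OLG peak lay in a coding exon of Evx2, the homeobox gene next to Hoxd13, 1496 bp from the Evx2 start. This peak was 10387 bp from the Hoxd13 start, just outside the 10 kb flank counted here.

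**Figure D3:**
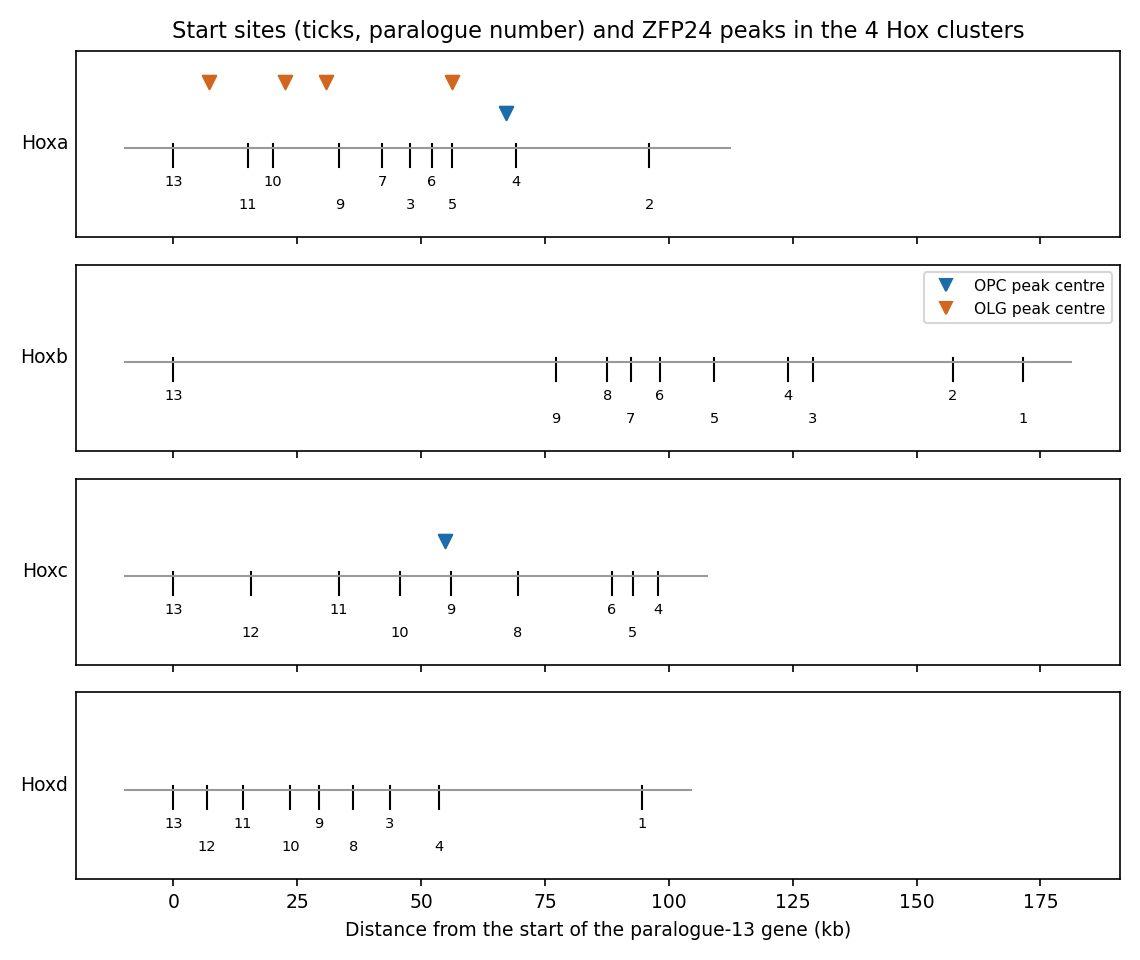
Position of OPC (blue) and OLG (orange) peak centres along the 4 Hox clusters, in kb from the start of the paralogue-13 gene; ticks are outermost starts with the gene's paralogue number, for the genes reported here, and the grey line runs 10 kb beyond the outermost genes. The Hoxa cluster carries 4 OLG peaks and 1 OPC peak, Hoxc 1 OPC peak, and Hoxb and Hoxd none.

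Within the Hoxa cluster, the OLG peaks were spread over the 5′ genes and the middle of the cluster. One lay 6 bp upstream of the Hoxa5 start, and it was also 4129 bp downstream of the Hoxa6 start and 8522 bp from an upstream start of Hoxa3, whose intron it lies in. A second peak lay between Hoxa9 and Hoxa10, 2645 bp upstream of Hoxa9 and 4924 bp downstream of the nearer of the Hoxa10 starts. Another was in a Hoxa10 intron, 2503 bp downstream of another, more upstream Hoxa10 start and 7459 bp from that of Hoxa11. The last lay in intergenic sequence 7055 bp downstream of a Hoxa13 start and 7937 bp upstream of Hoxa11. Hoxa10, Hoxa11 and Hoxa13 are known from limb, urogenital and posterior body patterning, and Hoxa3 and Hoxa5 from more anterior levels. The OPC peak of the cluster lay 2022 bp upstream of Hoxa4, also inside a Hoxa3 intron, and 10812 bp from the Hoxa5 start. Hoxa2 and Hoxa7 had no peak of either list within 10 kb. The GC content of the 200 bp around the centre was 51.0% to 65.0% in the 4 OLG peaks and 42.5% in the OPC peak. In the Hoxc cluster, the single OPC peak lay 1072 bp upstream of Hoxc9, a gene of thoracic levels, and 9164 bp downstream of the start of Hoxc10, a gene of lumbar levels.

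POU genes, whose proteins pair a POU-specific domain with a homeodomain, had the most OPC peaks of any family, 9 peaks at 7 genes. Grouping them by class was chosen after their values were seen. All 3 genes of class 4, factors of sensory neurons, had an OPC peak and none had an OLG peak within 10 kb. Over all protein-coding genes the shares were 12.8% for OPC and 6.48% for OLG. With 3 genes, a count of 0 allows a very wide range of OLG shares. The Pou4f2 peak lay 163 bp downstream of its start in the 5′ UTR. Pou4f3, needed in the hair cells of the inner ear, had an OPC peak 568 bp downstream of one of its starts, in a coding exon. It had another at 6621 bp. From the outermost Pou4f3 start the closer peak lay 1104 bp downstream. Pou4f1 had an OPC peak 6173 bp downstream of its start, in its 3′ UTR. The nearest OLG peak to a class 4 gene was 29598 bp from Pou4f2. Of the 4 class 3 genes, which act in neural progenitors and glia, Pou3f2 and Pou3f3 had peaks of both lists. Pou3f1, known from myelinating Schwann cells, was 14557 bp from an OPC peak and 228944 bp from an OLG peak. Pou3f4 had neither nearby, at 882499 bp in OPC and 22873520 bp in OLG. Beyond these classes, an OPC peak lay 5567 bp upstream of Pou6f1 and another 9699 bp upstream of Pou2f2, a factor of B cells. Neither of the class 5 genes nor Pou1f1, the pituitary factor, had a peak of either list within 10 kb.

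The 3 genes near peaks of both lists were Pou3f2, Pou3f3 and Six5. Pou3f2 had OPC peaks 237 bp downstream of its start, in the coding exon, and 6677 bp upstream, and an OLG peak between them, 1653 bp upstream. Pou3f3 had its OPC peak 806 bp downstream of the start in the 5′ UTR and its OLG peak at 2777 bp in the coding sequence. Six5, a homeobox gene next to Dmpk, had its OPC peak 1639 bp upstream, in a coding exon of Dmpk, and its OLG peak 351 bp downstream in its own coding exon. The closest OPC and OLG centres were 1890 bp apart at Pou3f2, 1971 bp at Pou3f3 and 1990 bp at Six5. In none of the 3 did an OPC and an OLG peak overlap by 1 bp or more, whereas 229 of the 458 protein-coding genes with both peaks (50%) had an overlapping pair. With 3 genes, a count of 0 allows a very wide range of shares.

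**Figure D4:**
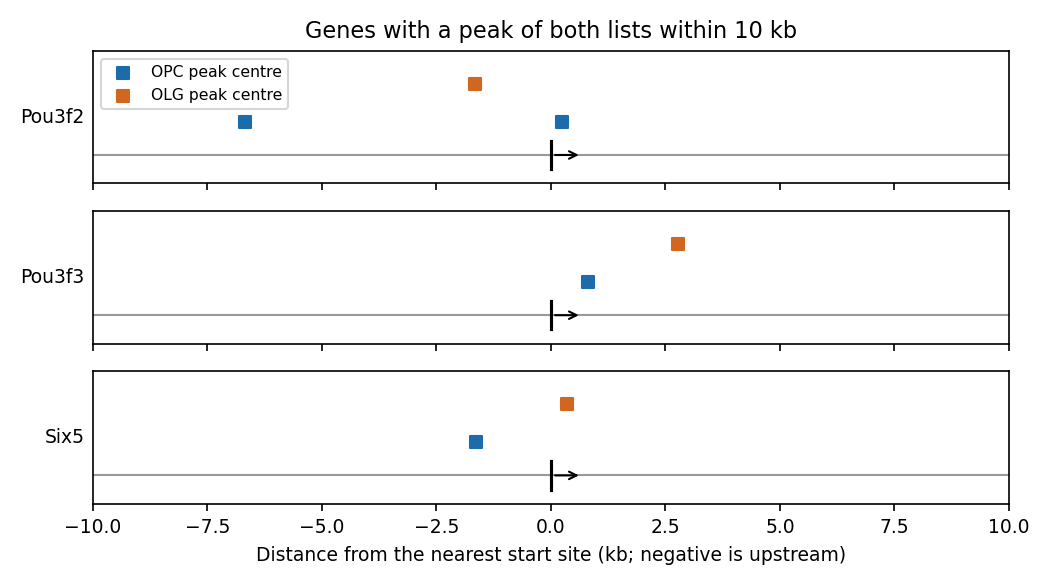
Peak centres of the OPC (blue) and OLG (orange) lists around the starts of Pou3f2, Pou3f3 and Six5, in kb from the nearest start, with negative values upstream and the arrow showing the direction of transcription. In each gene the OPC and OLG centres are at least 1890 bp apart.

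Among the patterning genes of the Nkx family, Nkx6-2, a factor of oligodendrocytes, had an OLG peak 982 bp downstream of its start in an intron, and its nearest OPC peak lay 140915 bp away. Nkx6-3 had the OPC peak with the repeat, 3844 bp downstream of its start. Nkx2-4, a close relative of the forebrain and thyroid factor Nkx2-1, had an OPC peak 1812 bp downstream in its 3′ UTR. Other Nkx genes had no peak in the window. Nkx2-2, which promotes oligodendrocyte differentiation, was 102468 bp from an OPC peak and 858024 bp from an OLG peak. Nkx6-1 lay 17113 bp from an OLG peak and 866231 bp from an OPC peak, and Nkx2-1 was 669874 bp from an OPC peak and 935606 bp from an OLG peak.

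Of the Pax genes, Pax6, a factor of eye and forebrain, had an OLG peak 350 bp downstream of one of its starts, in the 5′ UTR, and 7579 bp from its outermost start, with the nearest OPC peak 568132 bp away. Pax2, needed in the kidney and at the boundary of midbrain and hindbrain, had an OPC peak 4245 bp upstream. Pax7, a factor of dorsal neural tube and muscle, had peaks of both lists in its introns but outside the window, at 29764 bp in OPC and 10906 bp in OLG. Its paralogue Pax3 had them at 351836 bp and 2949126 bp. Otx1, a forebrain factor, had an OLG peak 430 bp upstream with the nearest OPC peak 429950 bp away, and Otx2 was 257131 bp from an OPC peak and 541649 bp from an OLG peak. Dlx5, a factor of the ventral forebrain and skeleton, had an OLG peak 3052 bp downstream in an intron. This gave the Dlx6 to Dlx5 pair 1 OLG peak in 38.8 kb, while the pairs Dlx1 with Dlx2 and Dlx3 with Dlx4 had no peak of either list. Dlx1 and Dlx2, genes of interneuron precursors, were 128884 and 110243 bp from an OPC peak and 472128 and 490769 bp from an OLG peak.

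Meis1, whose protein is a DNA-binding partner of Hox and Pbx proteins, had the OPC peak closest to a start among these genes, at 34 bp upstream. That distance is to one of its starts. From the outermost Meis1 start the peak lay 237 bp downstream, and by outermost starts the OPC peak of Pou4f2, at 163 bp, was closer. The OPC peak nearest to Meis2, the one with the 33-base repeat, was 10975 bp upstream, and no OLG peak was closer than 4289872 bp. The nearest OLG peak to Meis1 lay 901467 bp away. Lhx4, a LIM factor of the pituitary, had an OPC peak 773 bp upstream, and Lhx2, a LIM factor of forebrain and eye, was 52265 bp from an OPC peak and 130461 bp from an OLG peak. Among the families with no gene in the window, Irx5 was nearest for Irx, at 103007 bp in OPC and 29907 bp in OLG, and Msx1 for Msx, at 17868 bp and 98918 bp. The region of the neighbours Irx5 and Irx6, of 343 kb, held 1 OPC peak (2.91 per Mb) and no OLG peak.

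A smaller share of the peaks within 10 kb of these genes lay close to the start than of peaks near genes in general, with an interval below the general share in OPC and spanning it in OLG. Of the 17 OPC peaks, 6 (35.3%, 14.2 to 61.7) were within 1 kb of a start, against 69.6% of the 2364 OPC peaks within 10 kb of any protein-coding start. Of the 11 OLG peaks, 5 (45.5%, 16.7 to 76.6) were within 1 kb, against 71.1% of 1179. All 17 and 11 peaks had one of these genes as the nearest protein-coding start. By annotation, 7 of the OPC peaks were intergenic, 3 in coding exons, 3 in 5′ UTRs, 2 in 3′ UTRs and 2 in introns. The OLG peaks were 4 intergenic, 4 in introns, 2 in coding exons and 1 in a 5′ UTR. In OPC 9 were upstream and 8 downstream of the start, and in OLG 4 upstream and 7 downstream. None of the 17 OPC peaks overlapped an OLG peak (7.78% of the 2364 did, and 3 counts of 17 is 17.6%), and none of the 11 OLG peaks overlapped an OPC peak (15.5% of 1179, with 27.3% as the limit).

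The 200 bp around the centre of the OPC peaks had a median GC content of 54.0% (40.0 to 66.5) and a median of 8 CG dinucleotides (0 to 17), against 59.5% for OPC peaks near any start. In OLG the median was 63.5% (51.0 to 73.5) with 17 CG dinucleotides (6 to 27), against 65.5%. GC content at the start itself also moves with having a peak. The median GC content of the 1 kb around the start was 58.3% for these genes (55.9% for Hox genes) and 55.3% for all protein-coding genes. Split at the quartiles of all protein-coding genes, 9 of the genes were in the lowest quartile and had no peak of either list. In the highest quartile, 9 of 37 had an OPC peak (24.3%, 11.8 to 41.2, against 20.4% of all genes there), and 5 of 37 had an OLG peak (13.5%, 4.54 to 28.8, against 11.8%). In the second quartile, 2 of 25 had an OPC peak (8.0%, against 11.8%) and 4 of 25 an OLG peak (16%, 4.54 to 36.1, against 5.14%). In the third quartile 5 of 41 had each kind of peak (12.2%, 4.08 to 26.2), against 15.6% of all genes for OPC and 7.54% for OLG. The part of GC content in the counts was not tested.

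**Figure D5:**
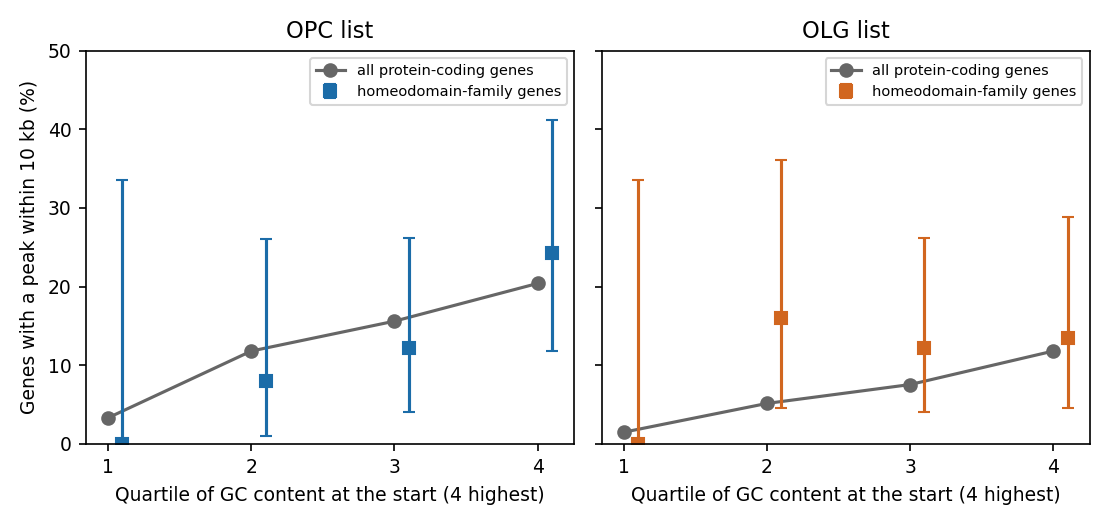
Percent of genes with a peak within 10 kb in each quartile of GC content at the start, for all protein-coding genes (grey) and the 112 genes (squares, with 95% exact intervals), for the OPC list (left) and the OLG list (right). The share of all genes rises from 3.31% to 20.4% in OPC and from 1.48% to 11.8% in OLG, and it lies within the interval in each quartile.

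TCAT repeats, which 12.2% of all OPC peaks and 5.71% of all OLG peaks carry, were at few of the peaks near these genes, as at peaks near any start. At least 12 bases of tandem TCAT stood in 1 of the 17 OPC peaks (5.88%, 0.149 to 28.7), against 6.56% of OPC peaks near any start, and in 0 of the 11 OLG peaks (limit 27.3%), against 4.07%. The Meis1 peak held 11 bases. Seen from the repeat, 10 tracts of 12 bases or more lay within 10 kb of these starts, and 1 of them, that of Nkx6-3, was at an OPC peak (10%, 0.253 to 44.5). Within 50 kb there were 72 tracts, of which 7 were at an OPC peak (9.72%, 4.0 to 19.0) and 0 at an OLG peak (limit 4.17%). Those 7 are not independent, since the Pax7 and Msx1 peaks each held more than 1 of them. The share of tracts within 50 kb of any protein-coding start was not computed. Over tracts within 10 kb of any protein-coding start, 6.46% were at an OPC peak and 1.90% at an OLG peak. Over the whole genome the shares were 4.16% and 0.716%. Besides the Meis2 and Pax7 peaks, repeat peaks within 50 kb lay 17868 bp from Msx1 and 36042 bp from Nkx2-3. The latter is nearer to the start of Slc25a28.

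Other homeobox genes and regulators of Hox genes give the surroundings of these families. Of 95 further homeobox genes, 20 (21.1%, 13.4 to 30.6) had an OPC peak within 10 kb and 14 (14.7%, 8.3 to 23.5) an OLG peak, beside the 12.8% and 6.48% of all protein-coding genes. Prox1, a factor of neural and lymphatic cell fate, had an OPC peak 6 bp upstream of a start. Vax1 and Tgif1 had OPC peaks 106 and 142 bp upstream, Hhex an OLG peak 69 bp upstream, and Cux1 an OLG peak 72 bp downstream and an OPC peak 272 bp upstream. Of 46 Polycomb and Trithorax genes, whose proteins hold Hox genes silent or active, 15 (32.6%, 19.5 to 48.0) had an OPC peak and 5 (10.9%, 3.62 to 23.6) an OLG peak. The closest were the OPC peaks of Mtf2 at 41 bp, Cbx6 at 139 bp, Phc1 at 190 bp and Cbx2 at 272 bp, all genes of Polycomb proteins. Scmh1 had an OLG peak at 320 bp, and Aebp2 had overlapping peaks of both lists, at 419 bp in OPC and 457 bp in OLG. These lists were not matched to the genes above in GC content.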

How the data were processed

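The authors deposited 2 peak lists (unit: positions), which per the file columns hold chromosome, start, end and name, with no score. The genome build mm10 and the tools HOMER 4.8.3 and BWA are named in the submitters' processing notes, and per the labels' protocols reads were 75 nt. The sources used here do not give the calling options, the threshold or the use of null and input libraries. Depth is unknown.

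Peak centres were set against every start of the GENCODE M21 basic protein-coding transcripts on 20 chromosomes of GRCm38.p6, with positions counted from 1. A gene was counted when a centre lay within 10 kb of a start. Distances are to the nearest start, with the side taken from the gene's strand. A cluster was a run of family members under 500 kb apart. Repeats were runs of at least 12 bases of tandem TCAT, searched as TCAT in any phase on both strands in the 200 bp around the centre, and a tract was at a peak when its middle was in that window. The outermost start of a gene gave its GC content. All genes with a peak in the window were named, with a set of 17 genes in any case, the nearest gene of each empty family and at most 6 genes of each further list. The members and lists were chosen with earlier results of these data known. Some genes that these rules name are not reported here, though they stay in the counts. The steps were tested on simulated data. Python 3.11.15, numpy 2.4.6, pandas 2.3.3, scipy 1.17.1 and pysam 0.24.0 were used. Sequences come from the RefSeq FASTA of GRCm38.p6. Other windows, starts, repeat lengths and parts of the lists were tried as alternatives.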

Additional observations from a re-analysis of the deposited data

How the results depend on the processing

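Windows, starts, repeat lengths, promoter widths, cluster flanks and the part of each list used were varied. That part held the peaks with the lower peak-name numbers, up to the median of each chromosome. Of 54 recomputed values, 36 stayed within 1.5 times the reported count. This tally compares counts, not shares, and it includes counts of 0 that stayed at 0, so it is no measure of robustness. With a 2 kb window, 9 of the 112 genes had an OPC peak (8.04%, against 9.21% of all protein-coding genes), 6 an OLG peak (5.36%, against 4.57%) and 13 either (11.6%, against 12.4%), so that the OPC and either shares fell below those of all genes. With 20 kb, 22 had an OLG peak (19.6%, against 8.74%) and 8 both (7.14%, against 3.38%). With 50 kb, 41 had an OPC peak (36.6%, against 29.2%), 32 an OLG peak (28.6%, against 15.1%), 18 both (16.1%, against 7.73%) and 55 either (49.1%, against 36.6%). Without the Hox clusters, 7 of 73 had an OLG peak (9.59%, against 6.48%) and 17 either (23.3%, against 17.1%). In the lower-numbered part of each list, whose numbering has no stated meaning, 6 genes had an OPC peak (5.36%, against 7.71%) and 16 either (14.3%, against 10.3%), while 12 had an OLG peak (10.7%, against 3.74%). The OPC count of repeat peaks was 2 of 17 with at least 8 bases, 0 of 9 within 2 kb and 5 of 31 within 50 kb (16.1%, against 10.8% of peaks near any start), and 3 of the 17 OPC peaks were within 500 bp of a start. Reaching 50 kb beyond the outer genes added 1 OLG peak at Hoxd, the one 10387 bp from the Hoxd13 start. No paired analysis was possible because each group held 1 library. Depth could not limit these statements in a measured way, since the lists hold no counts.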
